A study of Arabidopsis thaliana with 208 samples.

Results

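CC-type glutaredoxins are a plant family of small thiol proteins, and 10 of their genes were followed here in Arabidopsis roots at high and low nitrate: AT4G15660, AT4G15670, AT4G15680, AT4G15690 and AT4G15700, which lie in a row on chromosome 4, and AT5G18600, AT1G03020, AT3G62930, AT3G62950 and AT1G06830. They are a set given by locus name, 10 of the 33602 loci in the count files, and earlier results of these data were known when the set was drawn up. The seedlings were 9 days old and grew on medium with 10 mM KNO3 or with 1 mM KNO3. All other salts, among them 10 mM KCl, and the sucrose were the same in both media, so potassium changed together with nitrate. The plants were 12 T-DNA insertion lines (SALK_146141, SALK_100002, SALK_094437C, SALK_085964C, SALK_070847C, SALK_035980, SALK_015182, SALK_012253, SAIL_1207_H04, GABI_868_E02, GABI_699B09 and GABI_513E07), each with a piece of bacterial DNA inserted in its genome, and the wild type Col. The labels name the lines and not the genes that the insertions disrupt. A line at 1 concentration is a group, and there were 26 groups of 4 biological replicates. Each replicate pooled the roots of seedlings from 2 plates, and each concentration had 52 libraries.

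Glutaredoxins pass electrons from glutathione to disulfide bonds through an active site of 4 residues. In the CC type, which is found in land plants, that site begins with a pair of cysteines. Members of the family bind TGA transcription factors of the bZIP family and, through them, can bring TOPLESS co-repressors to target genes. Some members act in flower development and some in defence signalling. Others are known as genes that nitrate induces in shoots and that restrain root growth, or as small proteins that travel in the phloem from shoot to root to report nitrogen demand.

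The active-site stretch is shown because it is what defines the family and how its members differ. Each line gives coding bases 46 to 87 of a member, taken from RefSeq (TAIR10.1) and written 5′ to 3′ along the coding strand, with the 4 active-site codons in capitals.
AT4G15660 at chr4:8925973-8926014: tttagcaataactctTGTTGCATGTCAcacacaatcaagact
AT4G15670 at chr4:8929282-8929323: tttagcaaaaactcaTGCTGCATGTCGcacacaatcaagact
AT4G15680 at chr4:8931858-8931899: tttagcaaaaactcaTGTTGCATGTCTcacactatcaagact
AT4G15690 at chr4:8934489-8934530: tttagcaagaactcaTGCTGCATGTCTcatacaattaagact
AT4G15700 at chr4:8937590-8937631: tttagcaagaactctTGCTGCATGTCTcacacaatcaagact
AT5G18600 at chr5:6183688-6183729: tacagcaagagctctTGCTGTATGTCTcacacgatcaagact
AT1G03020 at chr1:698429-698470: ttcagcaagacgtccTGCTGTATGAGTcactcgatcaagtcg
AT3G62930 at chr3:23261760-23261801: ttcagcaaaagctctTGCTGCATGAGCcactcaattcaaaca
AT3G62950 at chr3:23266348-23266389: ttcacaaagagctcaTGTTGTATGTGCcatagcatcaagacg
AT1G06830 at chr1:2097234-2097275: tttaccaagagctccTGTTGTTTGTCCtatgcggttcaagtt
The first and second codons are TGT or TGC, the cysteine codons, in all 10 members. The third codon is ATG except in AT1G06830, where it is TTG. The fourth is a serine codon except in AT3G62950, where it is TGC, a further cysteine.

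All 10 genes have a single exon and overlap no other annotated gene on either strand. The 5 neighbours span chr4:8925571-8938124 (TAIR10.1 RefSeq, plus strand), 12554 bases, with gaps of 1803 to 2520 bases and no annotated gene between them. AT5G18600 lies at chr5:6183166-6184038 (minus strand), AT1G03020 at chr1:697919-698591 (minus) and AT1G06830 at chr1:2097106-2097655 (plus). AT3G62930 at chr3:23261442-23261927 (minus) and AT3G62950 at chr3:23266227-23267090 (plus) are near each other on chromosome 3. Among the 10 pairs within the row, 88.3% to 93.2% of the coding bases are the same, against 57.6% to 72.5% in the other 35 pairs of members.

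The library method reads short tags near the 3′ end of a transcript, so the likeness of the 3′ ends decides whether copies can be told apart. Over the last 500 transcript bases the pairs within the row are 58.6% to 77.8% identical. Of the stretches of 50 bases in that region, the share found more than once in the genome is 7.98% for AT4G15660, 7.54% for AT4G15700, 4.21% for AT4G15690, 3.1% for AT4G15670, 0.89% for AT4G15680 and 0 for the other 5 members. The read length is not given in the sources used here, so counts of the 5 neighbours may be split between them, and their sum is given beside each. The longest coding stretch that a pair of them shares, 71 bases at chr4:8926120-8926190 in AT4G15660 and at chr4:8937737-8937807 in AT4G15700 (TAIR10.1, plus strand), is shown as a run whose tags could not be assigned to either.
AT4G15660 and AT4G15700: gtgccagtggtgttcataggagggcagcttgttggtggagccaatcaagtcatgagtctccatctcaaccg

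With both sequencing runs summed, a library held 3981966 to 13695037 nuclear counts, with a median of 8330751. At this depth 5 members, AT4G15660, AT4G15680, AT4G15690, AT3G62930 and AT1G06830, passed the filter on low counts and were tested among 19664 genes, and the other 5 did not. Levels are CPM, counts scaled to library size with TMM factors. The filter asked for about 1.2 CPM in at least 4 libraries. At 1 mM the highest values were 1.16 CPM for AT4G15690 and 1.35 CPM for AT4G15680, with medians of 0.549 and 0.314 CPM. Both therefore passed the filter through their 10 mM libraries, where they were high. Because 3′ tags are counted once per transcript whatever its length but with unknown efficiency for each gene, levels are compared between libraries and not between genes. All 7 root markers, from the stem cell regulators PLT1 and PLT2 to the endodermal CASP1, were detected, with a summed level of 321.5 to 479.1 CPM at 10 mM and 272.9 to 431.8 CPM at 1 mM. The sample titles number the libraries 1 to 13 after the letters str, in sets of 8 that are called strips here. Both concentrations were present in 3 strips, while 5 had nothing but 10 mM and 5 nothing but 1 mM.

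Across all lines the row of neighbours was more abundant in roots at 10 mM KNO3. The summed level of its 5 genes was 2.17 to 8.84 CPM (median 4.58) in the 52 libraries at 10 mM, and 0.701 to 4.22 CPM (median 2.35) in the 52 at 1 mM. The groups overlapped, but 30 libraries at 10 mM lay above every 1 mM library, and all 52 at 1 mM lay below the 10 mM median. With the 5 rows summed before the fit the log2 change was 1.04 ± 0.10 SE (adjusted p of 8.93e-17 by edgeR's quasi-likelihood test with the Benjamini-Hochberg method). An adjusted p under 0.05 is a call. The test takes all libraries as independent, while same-numbered libraries of different lines shared levels in part within a concentration. Its p thus does not measure the spread between replicate sets that the lines share. In the fit with the rows summed 32.9% of genes were called higher at 10 mM. The log2 change was 1.17 with strip as a covariate (edgeR adjusted p of 9.86e-06). It was also 1.17 among the 24 libraries of the 3 strips that held both concentrations, with line as a term (adjusted p of 0.00128). No line was at both concentrations in the same strip, so that value compares libraries of a line between strips, and within a strip line and concentration cannot be told apart.

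The size of the rise differed between the replicates. The summed level had medians of 3.72 and 4.34 CPM at 10 mM and 2.62 and 3.07 CPM at 1 mM in replicates 1 and 2, which were in strips 1 to 7. In replicates 3 and 4, in strips 7 to 13, the medians were 5.54 and 4.94 CPM at 10 mM and 1.66 and 1.6 CPM at 1 mM. The log2 change was 0.70 ± 0.12 SE in replicates 1 and 2 alone and 1.49 ± 0.11 SE in replicates 3 and 4 alone (edgeR adjusted p of 4.85e-06 and 2.76e-14). Both were called, and the difference between them was not tested. These are bulk roots, in which fewer cells of a type and less RNA per cell cannot be told apart.

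**Figure D1:**
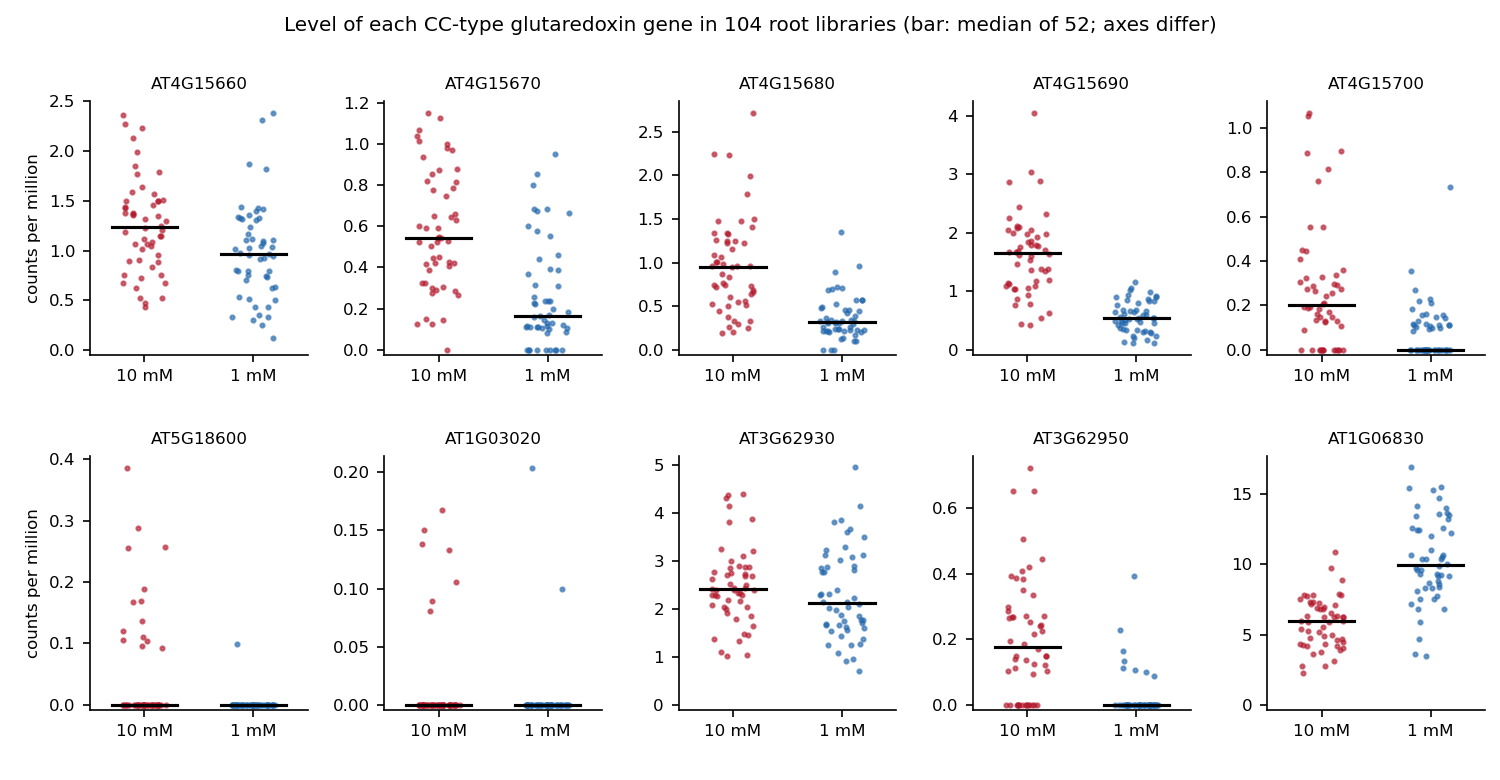
Level of each member in CPM (vertical axes differ) in the 52 libraries at 10 mM KNO3 (left of each panel) and the 52 at 1 mM (right), with the median as a bar. AT4G15690 and AT4G15680 sit higher at 10 mM, AT1G06830 sits lower, and AT5G18600 and AT1G03020 are at 0 in most libraries.

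Within the row the genes differed in size of response. AT4G15690 stood at 0.417 to 4.05 CPM (median 1.66) in 10 mM libraries and at 0.111 to 1.16 CPM (median 0.549) in 1 mM libraries. Its 10 mM values exceeded the highest 1 mM value in 37 of 52 libraries, although the ranges overlapped. The log2 change was 1.5 ± 0.13 SE (edgeR adjusted p of 1.35e-18), the largest in absolute size of the 5 members tested. AT4G15680 stood at 0.189 to 2.71 CPM (median 0.955) in 10 mM libraries and at 0 to 1.35 CPM (median 0.314) in 1 mM libraries, a log2 change of 1.37 ± 0.16 SE (edgeR adjusted p of 2.84e-12). Its ranges overlapped more, with 9 libraries at 10 mM above every 1 mM library. AT4G15660 was the exception: it stood at 0.435 to 2.36 CPM (median 1.24) in 10 mM libraries and at 0.118 to 2.39 CPM (median 0.970) in 1 mM libraries. Its highest value of any library belonged to a 1 mM library. Its log2 change of 0.37 ± 0.13 SE (edgeR adjusted p of 0.00712) lost the call with strip as a covariate (0.55, adjusted p of 0.158), when replicate 3 was left out of each group (0.18, adjusted p of 0.265) and without replicate 4 (0.31, adjusted p of 0.0700).

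In all, 4 of the 5 members tested were called over all lines, 3 higher and 1 lower at 10 mM. Of all 19664 genes tested 64.5% were called, 34.1% higher and 30.4% lower, so a call alone sets no member apart. By absolute log2 change AT4G15690 ranked 627 and AT4G15680 ranked 735 among the genes tested, AT1G06830 ranked 1711 and AT4G15660 ranked 4834. AT3G62930 ranked 12575. The median log2 change over all genes tested was 0.02.

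Nuclear genes of photosynthesis moved the same way as the row of neighbours. Of 12 markers of photosynthetic shoot tissue, 11 were tested and all 11 rose by the edgeR test, among them RBCS1A, a small subunit of Rubisco, with 23.8 ± 8.21 CPM at 10 mM and 8.68 ± 3.31 CPM at 1 mM (SD, n = 52 each). Their summed level was 53.1 to 190.7 CPM (median 100.4) in 10 mM libraries and 26.9 to 86.6 CPM (median 47.4) in 1 mM libraries. None of the 12 was at 0 over all libraries, and PRK, the marker that was not tested, averaged 0.211 CPM at 10 mM and 0.0850 CPM at 1 mM. Of 4 phloem markers 3 rose and SUC2, the sucrose loading transporter, fell, with summed levels of 129.8 to 198.9 CPM at 10 mM and 121.6 to 196.9 CPM at 1 mM. The part of shoot or phloem tissue in the glutaredoxin levels was not tested.

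The remaining neighbours and 3 further members were too sparse for the filter and are given as counts. AT4G15670 had 254 counts, at least 1 in 51 of 52 libraries, at 10 mM and 116 counts in 43 of 52 libraries at 1 mM. AT4G15700 had 115 counts in 40 libraries at 10 mM and 36 counts in 25 libraries at 1 mM. Both totals were thus higher at 10 mM, as for the other genes of the row. AT3G62950, the member with the additional cysteine codon, had 92 counts in 38 libraries at 10 mM and 12 counts in 8 libraries at 1 mM. Scaled by library size this was a ratio of 7.77 (95% exact interval 4.24 to 15.6, counting error only). Its mean was the higher at 10 mM in all 13 lines, a count with no share over all genes beside it. These means rest on few counts: the lowest at 10 mM, in SALK_094437C, was 0.0602 CPM, against 0 at 1 mM.

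Without the filter, edgeR called AT4G15670 (log2 change 1.18 ± 0.20 SE, adjusted p of 2.34e-07), AT4G15700 (1.65 ± 0.32, adjusted p of 4.83e-06) and AT3G62950 (2.83 ± 0.39, adjusted p of 1.81e-09), where 25.1% of 26858 genes were called higher. With strip as a covariate in that fit the call of AT4G15700 was lost (1.34, edgeR adjusted p of 0.190).

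AT5G18600 and AT1G03020 were close to undetected in these roots. AT5G18600 had 21 counts in 14 libraries at 10 mM and 1 count at 1 mM, a ratio of 21.3 with a 95% exact interval of 3.42 to 880.0 that covers counting error only. AT1G03020 had 7 counts in 7 libraries at 10 mM and 3 counts in 2 libraries at 1 mM, a ratio of 2.36 whose interval, 0.540 to 14.2, holds 1. The edgeR fit without the filter could not estimate a change for either, and most of the 26 groups were at 0. At this depth a change in these genes cannot be placed in any line.

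AT1G06830, the member with TTG at the third active-site codon, went the other way. It stood at 2.28 to 10.9 CPM (median 5.98) in 10 mM libraries and at 3.51 to 17.0 CPM (median 9.95) in 1 mM libraries. All but 1 of the 52 libraries at 10 mM lay below the 1 mM median, and 19 libraries at 1 mM lay above every 10 mM library. The log2 change was -0.81 ± 0.08 SE (edgeR adjusted p of 1.37e-16), and it was called among the libraries of the 3 strips that held both concentrations, with line as a term (-0.69, adjusted p of 0.00267). Replicate 1 stood apart in this gene: the median of its 13 libraries was 4.18 CPM at 10 mM and 13.4 CPM at 1 mM, while the medians of replicates 2 to 4 were 5.96 to 6.91 CPM at 10 mM and 8.70 to 9.77 CPM at 1 mM. Without replicate 1 of every group the log2 change was -0.55, still called by edgeR. In replicates 1 and 2 alone it was -1.19 ± 0.11 SE and in replicates 3 and 4 alone -0.44 ± 0.07 SE (edgeR adjusted p of 2.03e-12 and 1.41e-06).

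**Figure D2:**
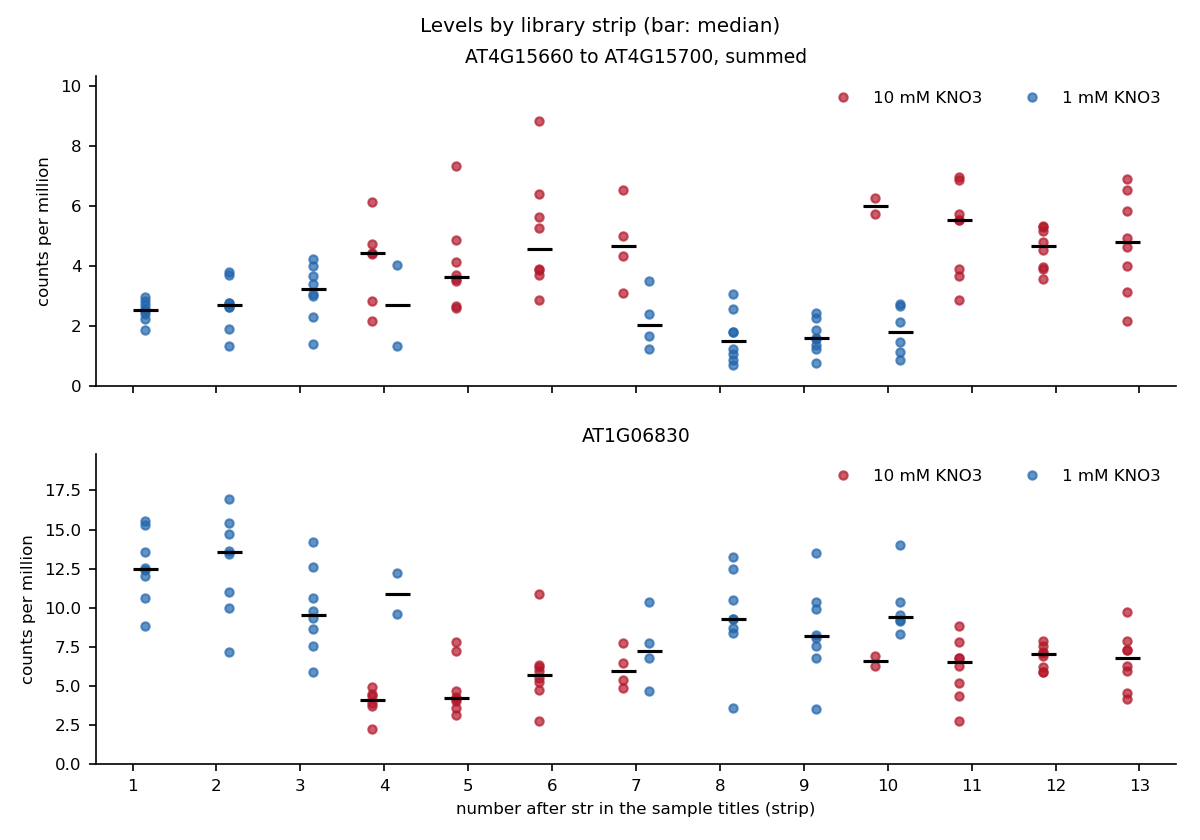
CPM of the 5 neighbours summed (top) and of AT1G06830 (bottom) by strip, with each library as a point, 10 mM to the left of 1 mM, and the median as a bar. In strips 4, 7 and 10, which held both concentrations, the summed neighbours had 10 mM medians of 4.43, 4.67 and 6.0 and 1 mM medians of 2.69, 2.04 and 1.81, and AT1G06830 had 10 mM medians of 4.14, 5.94 and 6.60 and 1 mM medians of 10.9, 7.27 and 9.39. These strips held 6, 4 and 2 libraries at 10 mM and 2, 4 and 6 at 1 mM. The ranges overlapped in strips 4 and 7 for the summed neighbours and in strip 7 for AT1G06830.

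AT3G62930 gave no call over all lines. It stood at 1.01 to 4.39 CPM (median 2.41) in 10 mM libraries and at 0.705 to 4.97 CPM (median 2.12) in 1 mM libraries. The ranges coincided almost fully, and the log2 change was 0.12 ± 0.11 SE (edgeR adjusted p of 0.332). Leaving out replicate 1 of every group gave 0.34 with a call (edgeR adjusted p of 0.0157) and leaving out replicate 3 gave -0.03 without one (adjusted p of 0.859). Replicates 1 and 2 alone gave -0.08 and replicates 3 and 4 alone 0.41 (edgeR adjusted p of 0.604 and 0.00883), so its direction rests on which libraries are kept.

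Within the lines, the response was tested in 13 comparisons that share no libraries, 65 tests of the 5 members. Same-numbered libraries of different lines shared levels in part within a concentration, so the 13 comparisons are not independent repeats. Of the 65 tests 24 were called, 17 higher at 10 mM and 7 lower. Over all genes and lines 18.0% of tests were called, 8.54% higher and 9.44% lower. AT4G15690 accounts for 11 of the rises: it was called in every line except SALK_085964C (log2 change 0.92, edgeR adjusted p of 0.167) and SALK_146141 (0.82, adjusted p of 0.218), and its mean was higher at 10 mM in all 13. In 8 lines its 4 libraries at 10 mM all lay above the 4 at 1 mM. No share over all genes is given for this count, so it does not set the gene apart.

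Col had the largest within-line change of AT4G15690. Its libraries stood at 1.15, 1.69, 1.86 and 2.26 CPM at 10 mM and at 0.901, 0.165, 0.245 and 0.209 CPM at 1 mM. The groups did not overlap, although replicate 1 at 1 mM lay far above its fellows, and the log2 change was 2.30 ± 0.49 SE (edgeR adjusted p of 1.30e-04). In SALK_015182 they stood at 0.772, 1.38, 1.67 and 2.86 CPM at 10 mM and at 0.239, 0.546, 0.509 and 0.111 CPM at 1 mM (2.15 ± 0.48 SE, edgeR adjusted p of 3.82e-04). There too the groups did not overlap.

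AT4G15680 rose in 6 lines, GABI_513E07, SAIL_1207_H04, SALK_070847C, SALK_100002, SALK_146141 and Col, and had a positive log2 change in the other 7. In GABI_513E07 it stood at 1.33, 2.24, 1.34 and 2.71 CPM at 10 mM and at 0.308, 0.709, 0.101 and 0.226 CPM at 1 mM. Every 10 mM library was above every 1 mM library, with a log2 change of 2.49 ± 0.52 SE (edgeR adjusted p of 1.34e-04). AT4G15660 and AT3G62930 were called in no line by edgeR, with log2 changes of -0.08 to 1.14 and 1 test at an unadjusted p under 0.05 for AT4G15660, and of -0.16 to 0.58 and 0 such tests for AT3G62930. DESeq2 and limma-voom called 25 and 18 of the 65 tests, with no share over all genes given for these counts.

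For the 5 neighbours summed, the change was positive in all 13 lines, from 0.64 in SALK_146141 to 1.56 in Col, and was called in 8 lines: GABI_513E07, GABI_699B09, SAIL_1207_H04, SALK_012253, SALK_015182, SALK_070847C, SALK_094437C and Col. In that fit 8.18% of all tests were called higher. Col stood at 4.4, 4.13, 6.26 and 4.52 CPM at 10 mM and at 2.70, 1.32, 1.23 and 1.36 CPM at 1 mM, without overlap (log2 change 1.56 ± 0.36 SE, edgeR adjusted p of 4.31e-04). In 6 lines the 4 libraries at 10 mM all lay above the 4 at 1 mM, a count that again has no share over all genes beside it.

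AT1G06830 had a negative change in all 13 lines and fell in 7 by the edgeR test: GABI_513E07, GABI_868_E02, SALK_012253, SALK_015182, SALK_094437C, SALK_100002 and SALK_146141. SALK_015182 stood at 3.73, 6.23, 6.30 and 5.99 CPM at 10 mM and at 15.5, 14.2, 12.5 and 8.09 CPM at 1 mM. The groups did not overlap (log2 change -1.17 ± 0.27 SE, adjusted p of 5.88e-04). Col had the smallest change: its libraries stood at 4.97, 7.26, 6.26 and 6.25 CPM at 10 mM and at 10.66, 7.16, 4.66 and 9.91 CPM at 1 mM. Here the groups overlapped, and the log2 change of -0.38 ± 0.27 SE was not called (edgeR adjusted p of 0.344).

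**Figure D3:**
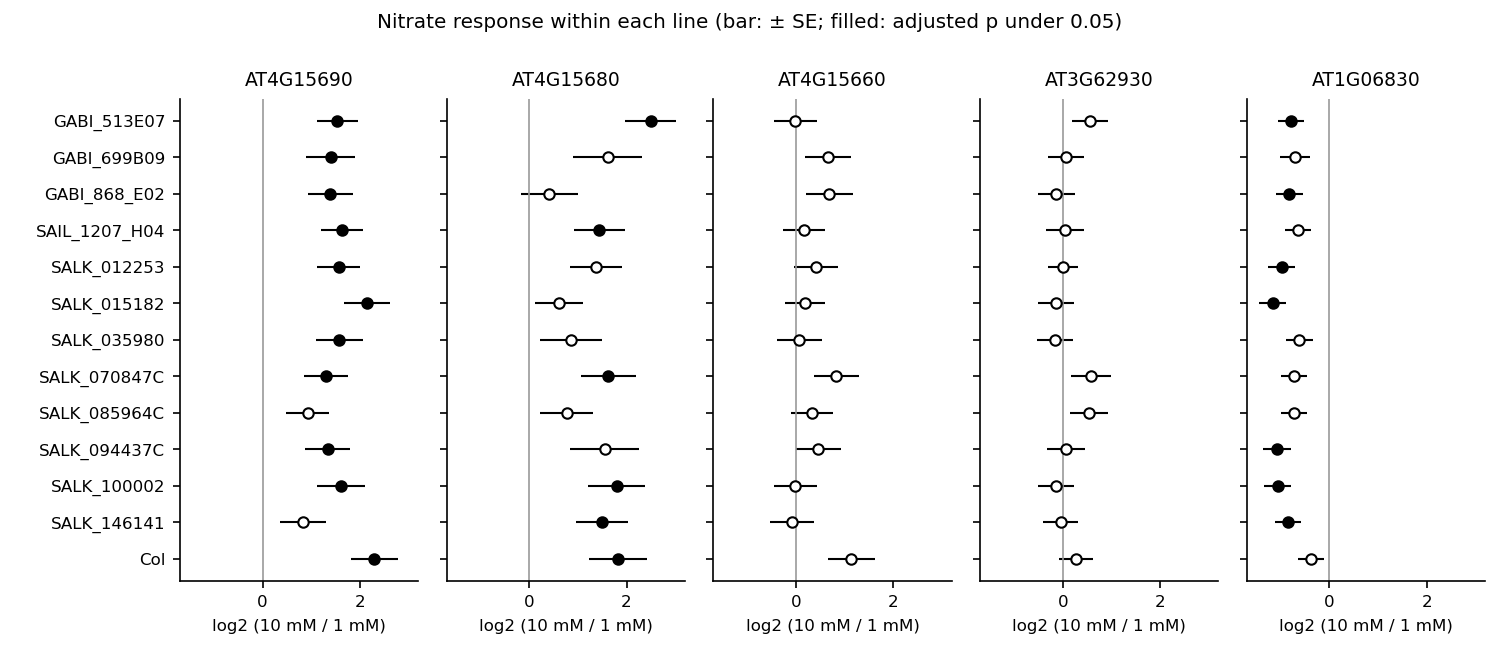
Log2 change of 10 mM over 1 mM KNO3 within each line (rows) for the 5 members tested (panels), with the standard error as a bar and a filled point where edgeR's adjusted p was under 0.05. The changes of AT4G15690 and AT4G15680 are above 0 in all 13 lines and those of AT1G06830 below 0 in all 13.

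Whether the response differed between lines was tested directly. In the joint test of the 13 responses edgeR called 0 of the 5 members, with 0 at an unadjusted p under 0.05, and DESeq2 and limma-voom also called 0. Over all genes 0.0102% were called. Set against the response of Col line by line, 0 of 60 member tests were called by edgeR, with 3 at an unadjusted p under 0.05, and by DESeq2 and limma-voom likewise 0, with 2 and 4. The 12 comparisons share the 8 Col libraries, and 0.00212% of all their tests were called. The response of the summed neighbours was 0.23 to 0.92 smaller in the insertion lines than in Col on the log2 scale, with no call. The standard errors of these differences were 0.49 to 0.53, so differences of this size were not detectable here, and the responses are not shown to be alike.

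Averaged over the concentrations, the lines differed from Col in 1 of 60 member tests by edgeR, AT1G06830 in GABI_699B09. Of all tests over the 12 lines 1.33% were called. The gene stood at 3.61, 2.75, 2.79 and 4.16 CPM at 10 mM and at 8.81, 5.93, 3.60 and 3.51 CPM at 1 mM in GABI_699B09, against the Col values given above. At 10 mM its libraries all lay below those of Col, while at 1 mM the groups overlapped. The log2 difference was -0.73 ± 0.20 SE (edgeR adjusted p of 0.00754). GABI_699B09 is the line with the most calls, 11.6% of genes and 7.06% lower than Col. The call was lost without replicate 2, 3 or 4 in all groups (log2 differences -0.68, -0.71 and -0.65, with edgeR adjusted p at 0.0971, 0.0583 and 0.0848) and in run 1 alone (-0.50, adjusted p of 0.294).

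In the same line the summed photosynthetic markers stood at 53.1 to 100.3 CPM at 10 mM, against 81.3 to 144.8 CPM in Col, and at 26.9 to 36.8 CPM at 1 mM, against 45.2 to 49.0 CPM in Col. Of these markers PSBO1, LHCA3 and HCEF1 were lower in GABI_699B09 by the edgeR test, and their part in the glutaredoxin value was not tested. AT3G62930 had a lower estimate than Col in each of the 12 lines, by 0.11 to 0.59 on the log2 scale, and was called in 0 by edgeR, with 2 at an unadjusted p under 0.05. The 12 comparisons share the 8 Col libraries, so these estimates are not independent.

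**Figure D4:**
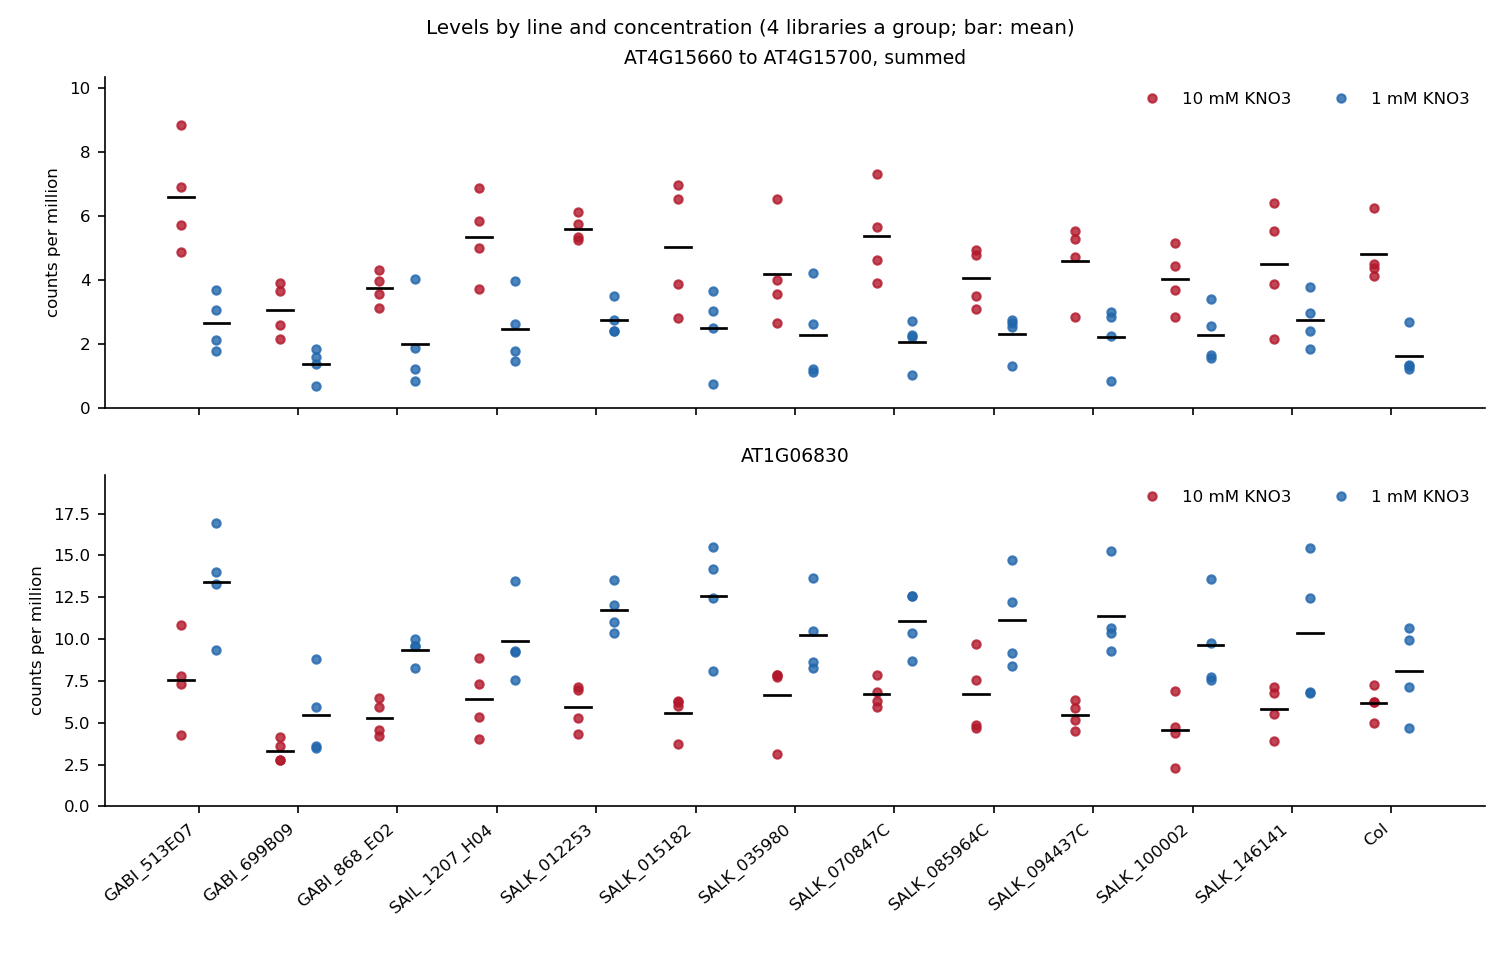
CPM of the 5 neighbours summed (top) and of AT1G06830 (bottom) in each line, with 4 libraries a group as points, 10 mM to the left of 1 mM, and the mean as a bar. The 10 mM means of the summed neighbours lie above the 1 mM means in all 13 lines and those of AT1G06830 below them, and GABI_699B09 has the lowest mean of both measures at both concentrations.

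Ordered by level, GABI_699B09 came last for the summed neighbours and for AT1G06830 at both concentrations, but the steps between lines were small. For the summed neighbours at 10 mM, GABI_513E07 averaged 6.59 ± 1.71 CPM, GABI_699B09 3.09 ± 0.834 CPM and Col, the sixth of 13, 4.83 ± 0.967 CPM (SD, n = 4 each). For AT1G06830 at 10 mM, GABI_513E07 averaged 7.57 ± 2.69 CPM, GABI_699B09 3.33 ± 0.681 CPM and Col, again the sixth, 6.18 ± 0.935 CPM. At 1 mM, AT1G06830 averaged 13.4 ± 3.14 CPM in GABI_513E07, 5.46 ± 2.50 CPM in GABI_699B09 and 8.10 ± 2.74 CPM in Col, which was next to last. In these rankings no neighbouring lines lay further apart than the larger of their SDs. The single step beyond it among the members tested was AT4G15680 at 10 mM, with 1.91 ± 0.684 CPM in GABI_513E07 and 1.2 ± 0.325 CPM in SALK_012253, the next line.

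The rest of the family also moved in both directions. Of 11 other CC-type glutaredoxin genes 8 were tested, 4 of them higher and 4 lower at 10 mM. Those too sparse for the test all had fewer counts at 10 mM. AT2G47880 had 6 counts at 10 mM and 63 at 1 mM, AT3G21460 22 and 38, and AT2G47870 3 and 12. The median log2 change of the 8 tested was -0.15, against 0.02 over all genes. The 3 largest changes among the 8 were falls. AT5G11930 averaged 1.66 ± 0.614 CPM at 10 mM and 13.2 ± 3.52 CPM at 1 mM (log2 change -2.99 ± 0.09 SE, edgeR adjusted p of 9.96e-51). GRX480 (AT1G28480), also named ROXY19 and known from salicylic acid and jasmonate signalling, averaged 3.79 ± 2.78 CPM at 10 mM and 18.4 ± 6.28 CPM at 1 mM (-2.32), and AT4G33040 7.97 ± 1.68 CPM at 10 mM and 37.2 ± 5.59 CPM at 1 mM (-2.22). These falls were larger than that of AT1G06830, whereas the largest rise, that of GRXS13 (AT1G03850, 1.45 ± 0.06 SE), was close to that of AT4G15690.

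**Figure D5:**
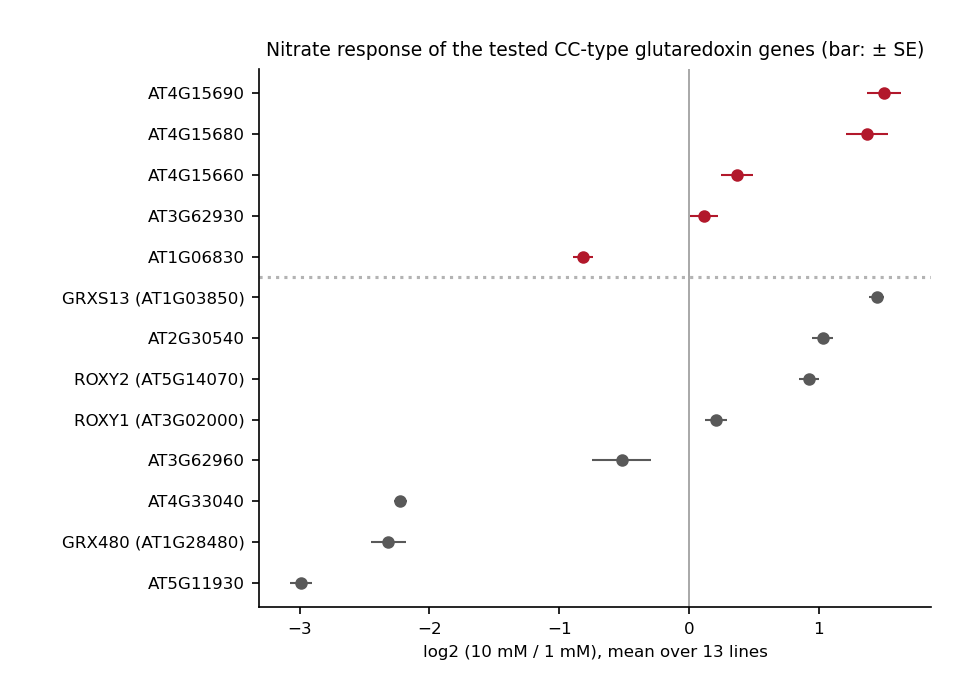
Log2 change of 10 mM over 1 mM KNO3, averaged over 13 lines, with its standard error as a bar, for the 5 members tested (red, above the dotted line) and the 8 tested of 11 other CC-type glutaredoxin genes (grey, below it). Values run from 1.5 for AT4G15690 to -2.99 for AT5G11930.

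Other glutaredoxins and genes of the pathway were counted in the same way. Of 10 glutaredoxins of the classes with CPYC and CGFS active sites, 4 rose, 4 fell and the median was 0.01 (log2). The 3 largest changes were those of GRXC2 (-0.29), GRXC1 (0.20) and GrxC5 (-0.17). Among 10 TGA factors, the DNA-binding partners of the family, 2 rose and 4 fell, with a median of -0.01. TGA3 averaged 76.5 ± 6.95 CPM at 10 mM and 106.4 ± 11.6 CPM at 1 mM (-0.47 ± 0.03 SE, edgeR adjusted p of 2.22e-27). TGA1 averaged 498.7 ± 56.8 CPM at 10 mM and 385.5 ± 44.8 CPM at 1 mM (0.37 ± 0.03 SE, edgeR adjusted p of 1.06e-17), and TGA10 fell (-0.26).

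Of the 5 TOPLESS co-repressors 1 rose and 2 fell: TPL (0.33), TPR3 (-0.53) and WSIP2, also named TPR4 (-0.15). Of 4 genes that supply glutathione, the reductant of glutaredoxins, 3 fell and 0 rose by edgeR: GR1, glutathione reductase (-0.56), GSH1, which makes gamma-glutamylcysteine (-0.34), and GSH2, glutathione synthetase (-0.11). The CEP list covers nitrogen-starvation peptides that roots send to shoots, their receptors and a phosphatase. AT1G47485, annotated as CEP1, was listed at 0 in all libraries, XIP1, also named CEPR1, was not called (0.02), and AT1G72180, annotated as CEPR2, rose (0.35). AT4G32950, annotated as a phosphatase of the 2C family, averaged 6.23 ± 2.40 CPM at 10 mM and 56.6 ± 8.51 CPM at 1 mM (log2 change -3.23 ± 0.07 SE, edgeR adjusted p of 6.80e-61). The median change was -0.07 in the TOPLESS list, -0.22 in the glutathione list and 0.02 in the CEP list.

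Genes whose pattern was most like that of the summed neighbours were looked for among 14816 genes with a mean of at least 5 CPM, by Pearson correlation of log2(CPM + 0.5) over the 26 group means. The 5 highest were PSBX, a photosystem II subunit (r = 0.945), PSAN, a photosystem I subunit (r = 0.941), AZI1 (r = 0.94), RBP31, an RNA-binding protein of chloroplasts (r = 0.938), and AT1G12250 (r = 0.935). All 5 were higher on average at 10 mM, PSAN with 7.88 CPM at 10 mM and 3.90 CPM at 1 mM. These points share the contrast of concentration. The mean of each concentration was then taken off, which leaves differences between lines within a concentration together with the spread of the group means. The 5 highest were then AT1G72090 (r = 0.786), PPAN (r = 0.781), AT1G06560 (r = 0.772), AT5G42860 (r = 0.759) and AT5G48610 (r = 0.752). No gene stood in both sets of 5, and the group means share libraries, depth and strips.

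The 250 bases upstream of each annotated start were compared because the neighbours are alike in sequence and their summed level rose, while AT1G06830 fell. A run of 11 bases is common to all 5 upstream windows of the row, found by comparing them after their responses were known. The stretches around it, up to 25 bases on either side within the window (TAIR10.1 RefSeq, plus strand, 5′ to 3′), carry it in capitals.
AT4G15660 at chr4:8925499-8925559: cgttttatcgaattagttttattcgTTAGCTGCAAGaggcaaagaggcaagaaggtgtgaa
AT4G15670 at chr4:8928856-8928916: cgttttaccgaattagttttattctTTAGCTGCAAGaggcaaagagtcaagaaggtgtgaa
AT4G15680 at chr4:8931440-8931500: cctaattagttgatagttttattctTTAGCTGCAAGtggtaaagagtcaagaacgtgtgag
AT4G15690 at chr4:8934046-8934089: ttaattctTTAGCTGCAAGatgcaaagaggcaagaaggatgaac
AT4G15700 at chr4:8937108-8937160: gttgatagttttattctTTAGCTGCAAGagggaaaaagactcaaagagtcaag
On either strand the run occurs in 6 of 27443 windows of protein-coding genes, or 0.0219%, of which 5 are these, and in 0 of the other 5 members. It was picked as the longest run common to the 5 windows, so these 5 matches were fixed by its choice. Its part in the nitrate response was not tested. The run ends 36 bases before the annotated start in AT4G15660 and 139 to 231 bases before it in the other 4. The bases around it are also alike, and AT4G15660, whose change was the smallest of the 3 tested in the row, carries it too.

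Motifs of known regulators were searched in the same windows on both strands. TGACG, the core bound by TGA factors, was in 0 of 10 member windows and in 18.6% of all windows. AGATT, the core bound by type-B response regulators of cytokinin signalling, was in 8 of 10 member windows, 5 of them those of the row, and in 63.7% of all. The window of AT4G15690, the tested member with the largest rise, is printed whole with AGATT in capitals. Beside it is that of AT1G06830, the member that fell, which has no match to either motif. AT3G62930, which gave no call over all lines, has no match to either motif as well. A link between these motifs and the nitrate response was not tested.
AT4G15690 at chr4:8934046-8934295: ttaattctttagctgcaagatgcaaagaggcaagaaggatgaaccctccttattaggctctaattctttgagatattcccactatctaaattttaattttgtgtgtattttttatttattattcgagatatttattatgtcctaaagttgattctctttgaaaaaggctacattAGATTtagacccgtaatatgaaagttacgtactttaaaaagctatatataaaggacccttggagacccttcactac
AT1G06830 at chr1:2096856-2097105: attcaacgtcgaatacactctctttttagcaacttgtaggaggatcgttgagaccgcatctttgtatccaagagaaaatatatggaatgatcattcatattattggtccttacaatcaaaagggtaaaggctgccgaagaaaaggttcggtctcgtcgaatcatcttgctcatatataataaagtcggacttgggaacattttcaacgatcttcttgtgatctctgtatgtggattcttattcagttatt
Such matches describe letters in a window and not binding.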

How the data were processed

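Roots were profiled by the BRAD-seq DGE method per the labels' protocols. The deposited values are whole-number counts of reads per locus, 1 file per library and run, with no normalization found in them. The build was TAIR10 and the tools listed are HTSeq, Bowtie, limma, SAMtools and FastQC, per the submitters' processing notes. Versions, strand setting and read length are not given in the sources used here. The files hold no coordinates, so sequences and positions were matched by locus name to RefSeq's TAIR10.1.

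The 208 files were summed over both runs into 104 libraries. The 279 organelle loci, all at 0 in run 2, were left out, which leaves 33323. Within groups no library was a copy of another: over 156 pairs, chi-square over its degrees of freedom had a minimum of 4.48 and a median of 10.3. Pairs across groups were not compared. Tags carry no molecular identifiers, so intervals cover counting error only.

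Counts were fitted in R 4.3.3 with edgeR 4.0.16: filterByExpr (minimum count 10), TMM factors, a quasi-likelihood model of 26 groups, and Benjamini-Hochberg adjustment over all genes tested. Any adjusted p in the text is from this test unless another tool is named. DESeq2 1.42.0 and limma-voom (limma 3.58.1) were alternatives, as were other factors, filters, runs and sets of libraries. The code of the fit was tested on simulated counts drawn independently for each library, without the levels that same-numbered libraries share. For 1 pair of libraries, replicate 3 at 10 mM of SALK_035980 and SALK_085964C, file names and labels give opposite lines. Groups follow the labels, and alternatives exchange or drop the pair. Members and lists were chosen with earlier results of these data known. All 10 members are named, and of each list of other glutaredoxins and pathway genes the 3 called genes with the largest absolute change. Tissue markers and any further gene of a list were named after their values were seen.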

Additional observations from a re-analysis of the deposited data

Results flagged for a closer look

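In 5 of 130 groups of 4 libraries (26 groups for each of the 5 members tested), or 3.85%, a library stood far from the other 3 relative to the range of its group, where chance flags about 1 in 20 groups. AT4G15690 was at 0.901 CPM in Col 1 mM replicate 1 and at 0.165 to 0.245 CPM in the other 3 libraries of that group, so this library makes the nitrate change of Col smaller. AT3G62930 was at 4.15 CPM in SALK_094437C 1 mM replicate 1, with the other 3 at 1.37 to 1.67 CPM, and at 4.32 CPM in SALK_146141 10 mM replicate 2, with the other 3 at 2.08 to 2.40 CPM. AT1G06830 was low in 2 libraries, at 3.73 CPM in SALK_015182 10 mM replicate 1, with the other 3 at 5.99 to 6.30 CPM, and at 3.13 CPM in SALK_035980 10 mM replicate 1, with the other 3 at 7.76 to 7.86 CPM.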

How the results depend on the processing

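Over all lines edgeR called 4 of 5 members tested. The count was 7 of 10 without the filter on low counts, 1 of 1 with a minimum count of 50, 2 of 3 in run 1 alone and 1 of 2 in the 3 strips that held both concentrations, which have fewer members in the test. With the neighbours summed into 1 row it was 2 of 3, and also with strip as a covariate, in the 3 strips, in replicates 1 and 2 alone and without GABI_699B09, and 2 to 3 when a replicate of every group was left out. The summed settings, apart from the first, and the block within each concentration were chosen after seeing the data. AT4G15690, AT4G15680 and AT1G06830 kept their direction and call in every alternative that tested them, 17, 16 and 29 settings. AT3G62930 gave 0.34 with a call without replicate 1 (0.33 with the neighbours summed) and changed sign to -0.03 without replicate 3 (-0.03 with them summed) and to -0.08 in replicates 1 and 2 alone, against 0.41 with a call in replicates 3 and 4 alone, and the cause was not tested. Within lines 24 of 65 tests were called, and 8 of 13 with a minimum count of 50, 4 of 39 in run 1 alone, 15 in run 2 alone, 15 of 39 with the neighbours summed and 12 to 17 without a replicate, where fewer counts enter. The single call against Col was lost in run 1 alone (0) and without replicates 2, 3 or 4 (0 to 1 over the 4 fits). The calls of responses against that of Col and among the 13 lines were 0 in every alternative. With the replicate block the counts were 4 over all lines and 24 within lines. Deviations of the same-numbered 10 mM and 1 mM libraries of a line had r of -0.256 to 0.171 over 52 pairs, 1 of them over 0.1. Those of a line and Col at 1 concentration had r of -0.205 to 0.441 (median 0.136) over 96 pairs, 58 of them over 0.1, and 56 of 96 libraries were nearest to the Col library of their own number. Same-numbered libraries thus share levels within a concentration in part, but not in every pair, so the numbers are not taken as pairs. With a replicate block within each concentration the counts were 4 over all lines, 31 within lines and 2 against Col, AT1G06830 in GABI_699B09 (-0.76, edgeR adjusted p of 8.97e-05) and in GABI_513E07 (0.51, adjusted p of 0.0273). This block takes the spread between replicate numbers out of the error, so it cannot show whether a nitrate call outlasts that spread. Apart from the fit without the filter and that with the neighbours summed, no share over all genes is given for the alternatives. A change in their counts therefore does not set the members apart. Levels under 1 CPM rest on a few counts a library, which limits what can be seen in a single line.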
